A study of Mus musculus and Rattus norvegicus with 60 samples.

Results

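Gene expression in the proliferative zone (PZ) of the rat proximal tibial growth plate is described here at 4 weeks against 1 week of age, across every gene measured. The libraries were chosen by their labels alone, which left 10 of the 60 libraries of the series. The 4-week group was 5 libraries from male Sprague Dawley rats aged 4 weeks, and the 1-week group was 5 libraries from male Sprague Dawley rats aged 1 week. Neither group carried a treatment or an engineered allele, and all animals fed freely. In the series, laser capture microdissection (LCM) was used to cut the PZ and the hypertrophic zone (HZ) out of frozen sections of the proximal tibia at both ages and of the proximal phalanx at 1 week, in rat and in mouse, for RNA sequencing (RNA-Seq). The series set ages and bones side by side to ask whether the aging of the growth plate runs ahead in shorter bones.

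The PZ holds columns of flat, dividing chondrocytes that lie between the resting zone, which supplies new columns, and the HZ, where the cells stop dividing, enlarge and mineralize their matrix. Beyond the HZ, vessels, osteoclasts and osteoblasts of the marrow space replace the cartilage with bone. Indian hedgehog (Ihh) from prehypertrophic cells and parathyroid hormone-related peptide (PTHrP, gene Pthlh) form a loop that holds chondrocytes in the dividing state, and Igf, Bmp, Wnt, Fgf and C-type natriuretic peptide signals act on the same cells. With age the growth plate divides less and thins, a program called growth plate senescence.

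The 4-week PZ libraries held 22149653 to 29033059 reads assigned to genes (median 24350803), and the 1-week PZ libraries held 11721278 to 15783182 (median 12164783). Log2 levels correlated across genes at 0.927 to 0.955 between libraries of 1 group and at no more than 0.92 between the ages. The dissected tissue was cartilage at both ages. Col2a1, the main cartilage collagen, ran from 2706780 to 4349430 normalized counts in 4-week libraries and from 2614900 to 2856680 in 1-week libraries, and Sox9, the chondrocyte transcription factor, from 32886 to 42753 at 4 weeks and from 28443 to 41097 at 1 week. Gdf10, a PZ marker, averaged 1297 in the 4-week PZ and 2083 in the 1-week PZ, and in the tibia HZ averaged 155 at 4 weeks and 36.0 at 1 week. Ibsp, a bone matrix protein of late hypertrophic cells and osteoblasts, averaged 15159.9 at 4 weeks and 3064 at 1 week in the PZ, and 350042 at 4 weeks and 187603 at 1 week in the HZ. Libraries 1, 2 and 4 of the 4-week group stood apart from libraries 3 and 5. Their mean log2 level of 9 osteoblast and osteocyte markers was 9.95, 8.64 and 10.1, against 6.02 and 6.85 in libraries 3 and 5 and 5.49 to 7.30 in the 1-week group. Osteoclast and endothelial markers split the same libraries. Library 1 of the 1-week group had a mean of 6.06 over 9 skeletal muscle markers, against 2.45 to 3.48 in the rest of its group. Markers of blood cells were higher in all 4-week libraries and are given below with their values, so the label of chondrocytes does not cover all RNA in these libraries.

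A normalized count is a read count divided by a size factor of its library, as deposited on a log2 scale. Below, a value pair such as "-6.18 ± 0.37" is the log2 fold change of 4 over 1 week with its standard error, on the scale of log2(normalized count + 1), from a limma fit across 11779 genes in which all 30 rat libraries set the spread. The adjusted p is the limma p after Benjamini-Hochberg adjustment over those genes. Rose and fell mean an adjusted p under 0.05. Calls of genes over the whole table also had to exceed 2-fold.

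Of 11779 genes, 680 (5.77%) were higher at 4 weeks and 359 (3.05%) were lower by more than 2-fold. Without the fold minimum 1137 (9.65%) rose and 759 (6.44%) fell, and these shares are the background for every list of genes below. The median log2 fold change over all genes was 0.04. In 1048 genes (8.9%) all 5 of the 4-week libraries were above all 5 of the 1-week libraries, and in 859 (7.29%) all were below. Changes over 8-fold made up 261 of the 680 higher genes and 80 of the 359 lower genes. The higher genes were often weakly expressed, since 308 of the 680 averaged under 100 normalized counts at 4 weeks. In a comparison added after the data were seen, libraries 1, 2 and 4 of the 4-week group were left out together, and 303 genes were then higher and 286 lower by more than 2-fold. Without the fold minimum 413 of the 11779 genes rose and 358 fell there. With any 1 library left out 899 to 1086 rose and 579 to 704 fell. These counts are the background for list counts from those fits. In bulk tissue, fewer cells of a type and less RNA per cell cannot be told apart. With the mean level of B lymphocyte markers as a covariate 7 genes were higher and 12 lower, and since that level did not overlap between the ages, the part of the age difference that goes with it cannot be told apart from age.

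Many growth genes of fetal life were lower at 4 weeks. Of 12 imprinted growth genes tested, 7 fell (Igf2, H19, Dlk1, Mest, Peg3, Plagl1 and Gnas) and 1 rose (Slc38a4), with a list median of -0.86. Igf2, the fetal insulin-like growth factor, had 999.7, 176, 336, 200.1 and 392 normalized counts in the 4-week libraries, against 24974, 26323, 29174, 22854 and 21174 in the 1-week libraries. All 4-week values were far below all 1-week values, and Igf2 fell by a factor of 72.3 on the fitted scale (-6.18 ± 0.37, adjusted p = 7.75e-12). The table held 3 entries for Igf2, and the other entries averaged 1.07 and 1.60 at 4 weeks, against 142 and 62.5 at 1 week. H19, a noncoding RNA from the neighboring imprinted gene, had 73285, 84606, 82661, 58219 and 70586 at 4 weeks, against 458155, 631082, 551348, 545473 and 479623 at 1 week. It stayed abundant at both ages, and the groups did not overlap (-2.85 ± 0.20, adjusted p = 3.61e-12).

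Dlk1, a membrane protein of the Notch ligand family expressed in fetal tissues, had 13.5, 22.3, 34.8, 18.9 and 12.5 normalized counts at 4 weeks, against 866, 601, 658, 708 and 1199 at 1 week. The highest 4-week library was far below the lowest 1-week library (-5.29 ± 0.65, adjusted p = 5.21e-07). Mest, an imprinted gene of the hydrolase fold, had 192, 77.3, 77.8, 146 and 121 at 4 weeks and 1079, 1371, 1293, 1068 and 1486 at 1 week. Its highest 4-week library was well under its lowest 1-week library (-3.42 ± 0.36, adjusted p = 8.18e-08). Peg3 (-0.92 ± 0.18, adjusted p = 0.000433) and Plagl1 (-0.80 ± 0.20, adjusted p = 0.00401), which encode zinc finger proteins, fell less steeply from high levels. Peg3 averaged 121785 ± 13719.6 at 4 weeks and 231251 ± 26970 at 1 week (SD, n = 5 each). With 4-week libraries 1, 2 and 4 left out, 4 of the 12 imprinted genes fell and 0 rose, and Peg3 (adjusted p = 0.0542) and Plagl1 (0.181) did not pass. The call of Gnas (-1.24 ± 0.35, adjusted p = 0.0111) was lost without library 2 of the 4-week group (adjusted p = 0.0508), and that of Slc38a4, an amino acid transporter (0.75 ± 0.25, adjusted p = 0.0349), in 7 of the 10 fits that left out 1 library (0.0609 to 0.0872). For Gnas the entry used averaged 256 at 4 weeks and 589 at 1 week. The other Gnas entry averaged 46.5 at 4 weeks and 66.4 at 1 week, a smaller difference, and was not tested. Grb10, an imprinted adaptor that restrains Igf and insulin receptors, averaged 21296 at 4 weeks and 21920 at 1 week and did not pass (-0.05 ± 0.15, adjusted p = 0.88).

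Of 8 fetal growth regulators, 4 fell and 0 rose, with a list median of -1.21. The 4 were Plag1, Gpc3, Hmga2 and Mycn, and they passed in every fit that left out 1 library. Plag1, a zinc finger activator of Igf2, had 54.1, 23.7, 14.9, 36.0 and 40.6 normalized counts at 4 weeks, against 361, 319, 379, 439 and 540.2 at 1 week. Gpc3, a heparan sulfate proteoglycan whose loss causes overgrowth, had 303, 435, 465, 352 and 346 at 4 weeks and 1298, 1788, 2045, 2051 and 2328 at 1 week. Neither gene overlapped between the ages, and Plag1 (-3.65 ± 0.35, adjusted p = 3.24e-09) changed more than Gpc3 (-2.31 ± 0.32, adjusted p = 3.57e-06). Hmga2, a chromatin protein of embryonic tissue, was low at both ages, with 5.23 ± 4.17 at 4 weeks and 55.6 ± 8.31 at 1 week (-3.52 ± 0.59, adjusted p = 4.91e-05). Mycn, a growth-promoting transcription factor, averaged 18.4 at 4 weeks and 82.9 at 1 week (-2.24 ± 0.60, adjusted p = 0.00809). Ezh2, the Polycomb methyltransferase, averaged 923 at 4 weeks and 1025 at 1 week, and its difference did not pass (-0.19 ± 0.19, adjusted p = 0.55).

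**Figure D1:**
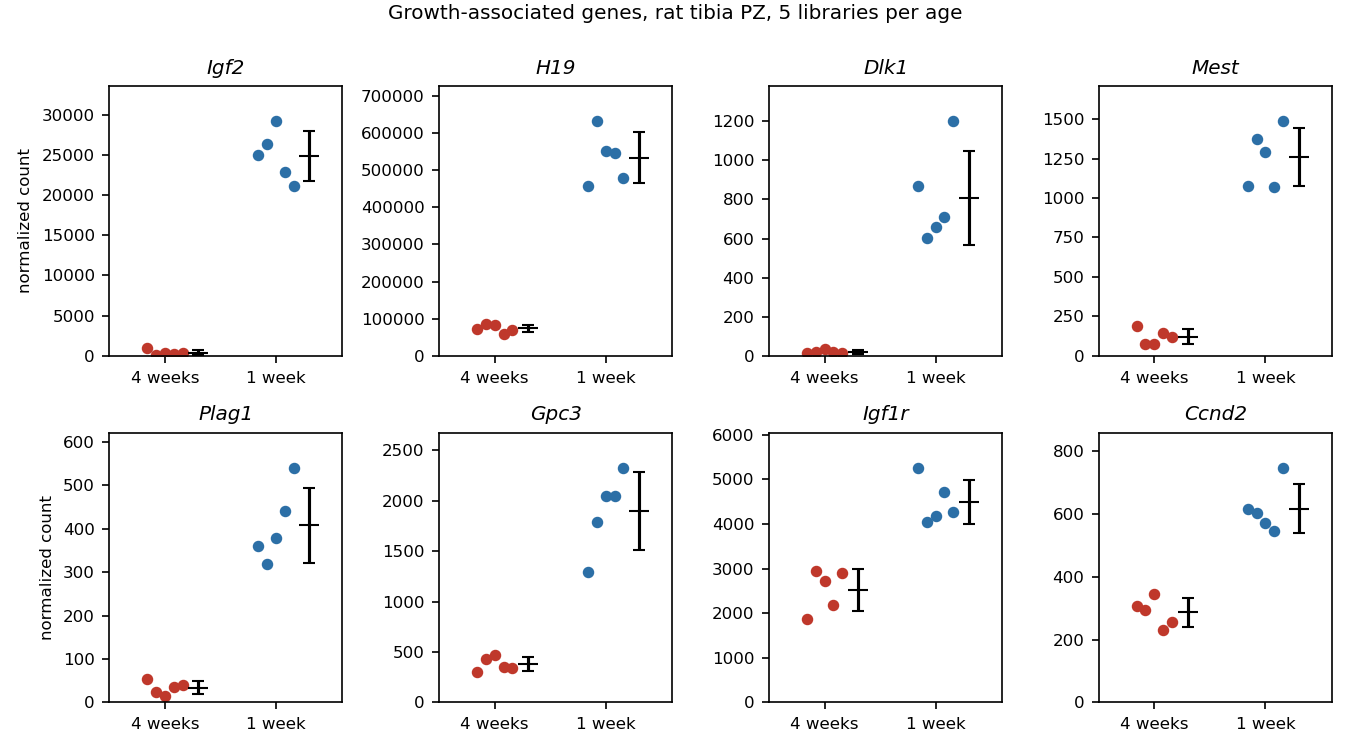
Normalized counts (linear vertical axis, starting at 0) of 8 growth-associated genes in the rat tibia PZ at 4 weeks (red, left) and 1 week (blue, right). Points are single libraries in the order 1 to 5, and the bars beside them give the mean ± SD (n = 5). Every 4-week point of these genes lies below every 1-week point, and Igf2 averages 421 at 4 weeks against 24900 at 1 week.

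Among 13 genes of the Igf system, 2 rose and 4 fell (median -0.14). Igf1r, the main Igf receptor, had 1880, 2947, 2709, 2178 and 2893 normalized counts at 4 weeks, against 5258, 4047, 4180.4, 4703 and 4264 at 1 week. The groups did not overlap (-0.85 ± 0.20, adjusted p = 0.00239). Irs2, which carries the receptor signal into the cell, also fell (-0.66 ± 0.19, adjusted p = 0.012), as did the insulin receptor Insr (-0.57 ± 0.17, adjusted p = 0.0182), whose call was lost without library 2 of the 1-week group (adjusted p = 0.0515). Igfbp7, a secreted protein that binds Igf weakly, had 1133, 591, 775, 1124 and 741 at 4 weeks and 151, 373, 88.6, 259.7 and 161 at 1 week. Every 4-week library was above every 1-week library (2.20 ± 0.47, adjusted p = 0.00163). Htra1, a secreted protease listed here because it cleaves Igf-binding proteins, rose too (2.07 ± 0.53, adjusted p = 0.00663). Igfbp4 averaged 78.8 ± 54.6 at 4 weeks and 30.9 ± 34.1 at 1 week with overlapping groups (1.75 ± 0.78, adjusted p = 0.141), and Igfbp5 averaged 28.2 at 4 weeks and 11.2 at 1 week (1.06 ± 0.50, adjusted p = 0.162). Igf1r, Irs2, Igfbp7 and Htra1 no longer passed without libraries 1, 2 and 4 of the 4-week group (adjusted p 0.127, 0.0603, 0.0575 and 0.2), each with the same sign.

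The growth hormone axis moved in both directions, with 2 of 7 genes up and 1 down (median 0.28). Ghr, the growth hormone receptor, had 472, 375, 291, 366 and 337 normalized counts at 4 weeks, against 881, 719, 695, 795 and 723 at 1 week. Its 4-week libraries were all below its 1-week libraries (-1.06 ± 0.22, adjusted p = 0.000694). Socs2, an inhibitor that growth hormone induces through Stat5, had 324, 278, 205, 322 and 177 at 4 weeks and 131, 74.2, 127, 145 and 114 at 1 week. The groups were again apart, in the other direction (1.13 ± 0.30, adjusted p = 0.00786). Cish, a related Stat5 target, rose from a very low level, with a mean of 11.7 at 4 weeks and 1.77 at 1 week and overlapping groups (2.68 ± 0.71, adjusted p = 0.00733). Socs2 and Cish did not pass without 4-week libraries 1, 2 and 4 (adjusted p 0.367 and 0.204).

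Bmp signaling genes changed singly rather than as a group. Of 11 Bmp and Gdf ligands 3 rose and 3 fell, and of 13 antagonists 1 rose and 1 fell. Bmp5 had 40.6, 2.79, 62.9, 162 and 25.8 normalized counts at 4 weeks, against 738, 676, 584, 627 and 556 at 1 week, and Bmp8a had 159.9, 141, 111, 135 and 111 at 4 weeks and 65.4, 29.7, 17.5, 58.6 and 14.1 at 1 week. Neither ligand overlapped between the ages, and they moved in opposite directions (Bmp5 -4.23 ± 0.74, adjusted p = 0.000159, Bmp8a 2.03 ± 0.39, adjusted p = 0.000256). Gdf11 fell (-1.33 ± 0.28, adjusted p = 0.000958), and Bmp1, a procollagen-cleaving protease that is counted with the ligands by name, rose (0.75 ± 0.19, adjusted p = 0.0052). Bmp2, a ligand of prehypertrophic cells, averaged 543 ± 114 at 4 weeks and 266 ± 89.0 at 1 week (1.07 ± 0.29, adjusted p = 0.00896). Bmp7, a PZ ligand, averaged 123 at 4 weeks and 255 at 1 week (-1.11 ± 0.33, adjusted p = 0.0185), but its call was lost without library 4 of the 4-week group (adjusted p = 0.0799) or library 1 of the 1-week group (0.0548). Bmp6 (0.78 ± 0.31, adjusted p = 0.0814) and Bmp3 (-0.28 ± 0.59, adjusted p = 0.813) did not pass.

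Chrdl1, a secreted Bmp antagonist, had 3482, 3441, 3848, 4029 and 3676 normalized counts at 4 weeks, against 794, 483, 296, 505 and 391 at 1 week. The 4-week values were tightly grouped and lay above all 1-week values (2.98 ± 0.32, adjusted p = 6.74e-08). Bmper, another extracellular Bmp modulator, fell, with 135 ± 40.8 at 4 weeks and 432 ± 150.1 at 1 week (-1.65 ± 0.44, adjusted p = 0.00774). Of 13 Bmp receptors and targets 0 rose and 2 fell. They were the signal transducers Smad1, with 1057, 1329.8, 1134, 1460.5 and 1352 at 4 weeks and 3768, 2752, 2767, 2525 and 2123 at 1 week, and Smad5 (-0.48 ± 0.14, adjusted p = 0.0155). Smad1 did not overlap between the ages (-1.12 ± 0.16, adjusted p = 4.12e-06).

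Of 15 TGF-beta genes 2 rose and 2 fell. Tgfbi, a TGF-beta-induced gene that encodes a matrix protein, had 1322, 2043, 1774, 1935 and 2024 normalized counts at 4 weeks, against 5461, 5875, 5096, 5339.6 and 5817 at 1 week. Every 4-week library was far below every 1-week library (-1.62 ± 0.23, adjusted p = 3.42e-06). Ltbp1, which binds latent TGF-beta to the matrix, rose (1.53 ± 0.27, adjusted p = 9.02e-05). The receptor Tgfbr3 was the other gene to fall (-0.62 ± 0.21, adjusted p = 0.033), and its call was lost in 6 of the 10 fits that left out 1 library (adjusted p 0.0544 to 0.108).

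Wnt pathway genes that passed were mostly lower at 4 weeks. Of 7 Wnt ligands tested, Wnt5a alone fell and 0 rose. Wnt5a, which guides the alignment of chondrocyte columns, had 82.4, 125, 73.7, 84.0 and 77.3 normalized counts at 4 weeks, against 533, 341, 202, 405 and 363 at 1 week. Every 4-week library was below every 1-week library (-2.01 ± 0.29, adjusted p = 4.23e-06). Wnt5b averaged 1635 at 4 weeks and 1112 at 1 week (0.56 ± 0.25, adjusted p = 0.126) and Wnt4 averaged 66.9 at 4 weeks and 129.8 at 1 week (-0.96 ± 0.49, adjusted p = 0.195), and neither passed.

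Secreted Wnt antagonists fell in 4 of 10 genes and rose in 0, with a list median of -1.01. Sfrp1, a soluble decoy for Wnt, had 1121, 758, 1075, 675 and 1206 normalized counts at 4 weeks, against 11037, 8909, 8866, 8789.8 and 10288 at 1 week. The groups were far apart (-3.34 ± 0.33, adjusted p = 1.62e-08). Sfrp2, of the same family, averaged 48.2 ± 37.2 at 4 weeks and 551 ± 140.3 at 1 week (-3.74 ± 0.74, adjusted p = 0.000473). Notum, an enzyme that strips the lipid from Wnt proteins, averaged 34.7 at 4 weeks and 267 at 1 week (-3.18 ± 0.87, adjusted p = 0.0111). Dkk2 was near 0 at both ages, with 0.331 at 4 weeks and 8.43 at 1 week (-2.73 ± 0.92, adjusted p = 0.0368), and its call was lost in 8 of the 10 fits that left out 1 library (adjusted p 0.0531 to 0.0951). Dkk3 (-1.70 ± 0.72, adjusted p = 0.107) and Wif1 (0.70 ± 0.44, adjusted p = 0.312) did not pass. Without 4-week libraries 1, 2 and 4, Sfrp1 and Sfrp2 still passed and 2 of the 10 fell.

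Of 20 Wnt receptors and response genes, 7 fell and 1 rose (median -0.27). Lef1, the nuclear factor through which beta-catenin acts, had 252, 224, 53.0, 135 and 138 normalized counts at 4 weeks, against 564, 493, 388, 744 and 642 at 1 week. Lrp5, a Wnt co-receptor, had 201, 330.2, 94.4, 254 and 267 at 4 weeks and 559.8, 412, 364, 346 and 637 at 1 week. Both were lower in every 4-week library than in any 1-week library (Lef1 -1.96 ± 0.34, adjusted p = 9.34e-05, Lrp5 -1.08 ± 0.26, adjusted p = 0.00328). Nkd1, which Wnt induces and which feeds back on the pathway, fell (-2.04 ± 0.40, adjusted p = 0.000428), as did Lgr4, an R-spondin receptor (-0.73 ± 0.16, adjusted p = 0.00156). Axin2, the usual readout of beta-catenin signaling, averaged 70.3 ± 39.4 at 4 weeks and 143 ± 55.4 at 1 week with overlapping groups (-1.13 ± 0.38, adjusted p = 0.0354), and its call was lost in 5 of the 10 fits that left out 1 library (adjusted p 0.0568 to 0.129). Rnf43, a ligase that removes Wnt receptors, was the gene that rose, with 9.03 at 4 weeks and 0 in every 1-week library, which makes it at least 2.62-fold higher when the 1-week level is set at 3 reads per library. Among 12 planar cell polarity genes, Dchs1 (-1.95 ± 0.31, adjusted p = 2.39e-05), Dvl3 (-0.99 ± 0.16, adjusted p = 4.08e-05), Prickle1 (-0.74 ± 0.19, adjusted p = 0.00517) and Ror2 fell and Prickle2 (1.29 ± 0.22, adjusted p = 5.94e-05) and Ryk rose. The calls of Ror2 (-0.82 ± 0.25, adjusted p = 0.0198) and Ryk (0.50 ± 0.15, adjusted p = 0.0167) were lost without library 4 of the 4-week group and library 1 of the 1-week group (adjusted p 0.061 and 0.0544).

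In the hedgehog and PTHrP loop, 6 of 14 genes fell and 1 rose (median -0.76). Pth1r, the receptor for PTHrP, had 3979, 7426, 5379, 5549 and 6756 normalized counts at 4 weeks, against 3194, 2721, 1908, 3356 and 1952 at 1 week. The lowest 4-week library was above the highest 1-week library (1.16 ± 0.19, adjusted p = 4.61e-05). Ihh itself had 958, 2146, 1498, 1631 and 2046 at 4 weeks and 1639.8, 1710.5, 966, 2135 and 908 at 1 week. The groups overlapped almost fully and the difference did not pass (0.19 ± 0.28, adjusted p = 0.703). Hdac4, a deacetylase that restrains hypertrophy and acts below PTHrP, fell (-0.96 ± 0.24, adjusted p = 0.00424). Gli3, a hedgehog transcription factor (-0.78 ± 0.24, adjusted p = 0.0229) and the hedgehog co-receptor Cdon (-0.73 ± 0.23, adjusted p = 0.021) fell, though the calls were lost in 3 and 2 of the 10 fits that left out 1 library (adjusted p up to 0.0691 and 0.0705). The main receptor Ptch1 did not pass (-0.32 ± 0.16, adjusted p = 0.173). Gli1, a direct hedgehog target, averaged 772 ± 166 at 4 weeks and 1473 ± 283 at 1 week without overlap, but did not pass in the limma fit (-0.94 ± 0.57, adjusted p = 0.296). Pthlh was near 0 at both ages (4.81 at 4 weeks and 19.5 at 1 week). The count of 6 rested on library 1 of the 1-week group, without which 1 of the 14 genes fell. Hdac4 passed in every fit that left out 1 library.

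In other growth signals single genes passed. Of 5 genes of C-type natriuretic peptide signaling, its receptor Npr2 fell (-0.72 ± 0.16, adjusted p = 0.00135) and the kinase Prkg2, which acts below it, passed at 0.60 ± 0.19, adjusted p = 0.0242, a call lost in 6 of the 10 fits that left out 1 library (adjusted p 0.0529 to 0.0617). Of 14 Fgf genes, Fgf2 (2.34 ± 0.79, adjusted p = 0.0366) and the Fgf-responsive factor Etv4 (-2.69 ± 0.77, adjusted p = 0.0132) passed at low levels (means of 13.2 and 5.80 at 4 weeks, 2.89 and 34.7 at 1 week), and Fgfr3, the receptor that restrains bone growth, averaged 3881 at 4 weeks and 3633 at 1 week (0.08 ± 0.24, adjusted p = 0.872). Of 12 Notch genes Dll1 alone passed (2.35 ± 0.80, adjusted p = 0.0399). The call of Fgf2 was lost in 8 of the 10 fits that left out 1 library (adjusted p 0.0533 to 0.109), that of Dll1 in 7 (0.0665 to 0.123) and that of Etv4 without library 2 of the 4-week group (0.0639). Of 9 Hox genes tested, Hoxd9 alone passed, with means of 10.7 at 4 weeks and 0.499 at 1 week, and its call was lost in 8 of the 10 fits that left out 1 library (adjusted p 0.0515 to 0.088). Of 19 limb transcription factors Tbx18 (-2.16 ± 0.56, adjusted p = 0.00656) and the hindlimb factor Tbx4 (-2.44 ± 0.72, adjusted p = 0.0165) fell, the Tbx4 call being lost without library 4 of the 4-week group (adjusted p = 0.055). Tbx5, the forelimb factor, averaged 5.13 at 4 weeks, was at 0 in every 1-week library and did not pass (adjusted p = 0.0717), nor did Epha3, an ephrin receptor (-2.69 ± 0.98, adjusted p = 0.0561).

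In the fit of all 30 rat libraries the main cartilage collagens and proteoglycan did not pass, and selected matrix proteins did. Of 6 cartilage collagens 0 rose and 0 fell at an adjusted p under 0.05, with a median of 0.23. With only the tibia PZ libraries in the fit and no replicate block, 2 of the 6 rose and 0 fell. Over all 11779 genes 1479 rose and 1126 fell in that fit, without a fold minimum. Col2a1 had 2706780, 3989670, 4349430, 3408190 and 4132700 normalized counts at 4 weeks, against 2814670, 2633220, 2614900, 2856680 and 2641820 at 1 week, with overlapping groups (0.44 ± 0.22, adjusted p = 0.201). Acan, the main cartilage proteoglycan (0.35 ± 0.23, adjusted p = 0.331), and Hapln1, the link protein that anchors it (0.41 ± 0.30, adjusted p = 0.389), also did not pass. Of 21 other cartilage matrix genes 5 rose and 3 fell (median 0.51), and with any 1 library left out 2 to 7 rose, the fewest without library 2 of the 4-week group and in 3 other such fits, and 3 fell. In the fit of the tibia PZ libraries alone, 11 of the 21 rose and 3 fell.

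Chad, a leucine-rich repeat protein that binds collagen and cells, had 2394, 2596, 2839, 2888 and 3803 normalized counts at 4 weeks, against 1035, 769, 826, 829.6 and 829.9 at 1 week. Cilp, a protein of the deeper cartilage layers, had 534, 759, 661, 586 and 1005 at 4 weeks and 242, 121, 87.4, 121 and 188 at 1 week. Both were higher in every 4-week library (Chad 1.75 ± 0.24, adjusted p = 2.78e-06, Cilp 2.27 ± 0.34, adjusted p = 8.55e-06) and passed in every fit that left out 1 library. The other genes that rose, Mia (0.89 ± 0.29, adjusted p = 0.0361), Matn4 (1.22 ± 0.41, adjusted p = 0.0388) and Clec3a (0.76 ± 0.26, adjusted p = 0.0408), each lost the call in 6 or 7 of the 10 fits that left out 1 library (adjusted p 0.0522 to 0.11). Epyc, a small leucine-rich proteoglycan of immature cartilage, had 1171, 1611, 1145, 970 and 1406 at 4 weeks and 7851, 7053, 7194, 6909.6 and 9128 at 1 week. Lum, a related proteoglycan of fibrous tissue, had 1471, 875, 570.5, 1411 and 542 at 4 weeks and 4828, 4894, 4303, 4454 and 5875 at 1 week. In both, every 4-week library was below every 1-week library (Epyc -2.61 ± 0.29, adjusted p = 1.3e-07, Lum -2.44 ± 0.28, adjusted p = 2.68e-07). Matn1, a matrilin of immature cartilage, fell with partly overlapping values, 12752 ± 3714 at 4 weeks and 29414 ± 7715 at 1 week (-1.21 ± 0.30, adjusted p = 0.00489).

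Of 13 chondrocyte transcription factors, 1 rose and 3 fell (median -0.28). Sox9 had 32886, 42753, 38267, 33845 and 42296 normalized counts at 4 weeks and 41097, 32031, 28543, 29895 and 28443 at 1 week, with overlap (0.25 ± 0.25, adjusted p = 0.552). Its partners Sox6 (-0.80 ± 0.19, adjusted p = 0.0023) and Sox5 (-0.61 ± 0.20, adjusted p = 0.0334) fell, as did Zfp521, a zinc finger factor that delays hypertrophy (-0.60 ± 0.17, adjusted p = 0.0107). The call of Sox5 was lost in 6 of the 10 fits that left out 1 library (adjusted p 0.0504 to 0.0935) and that of Zfp521 without library 1 of the 1-week group (0.0564), which left Sox6 as the gene that fell without that library. Sox6 did not pass without 4-week libraries 1, 2 and 4 (-0.76, adjusted p = 0.0747), and 0 of the 13 fell there. Foxa2, a factor that promotes hypertrophy, was the gene that rose, with 122 ± 35.4 at 4 weeks and 45.4 ± 28.2 at 1 week (1.54 ± 0.34, adjusted p = 0.00139).

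Of 13 markers of prehypertrophic and hypertrophic cells, 6 rose and 0 fell, with a list median of 1.07. Alpl, the phosphatase that starts mineralization, had 3912, 4945, 5184, 6946 and 6590.5 normalized counts at 4 weeks, against 729, 754, 327, 1321 and 454 at 1 week. The lowest 4-week library was above the highest 1-week library, a difference of 8.42-fold on the fitted scale (3.07 ± 0.27, adjusted p = 1.93e-09). Panx3, a channel protein of prehypertrophic cells, had 66515, 81921, 109667, 90953 and 90673 at 4 weeks and 40785, 40939.5, 35658, 58476 and 33494 at 1 week. These groups were also apart (1.08 ± 0.20, adjusted p = 0.00016). Enpp1, which makes the mineralization inhibitor pyrophosphate, rose (0.72 ± 0.15, adjusted p = 0.000737), and with Pth1r and Bmp2 above and Spp1 below completes the 6.

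Late hypertrophic genes followed the split of the 4-week libraries instead. Mmp13, the collagenase of the last hypertrophic cells and of osteoblasts, had 15348, 6159, 554, 20337 and 1547 normalized counts at 4 weeks, against 1322, 953, 700.1, 1431 and 1136 at 1 week. Libraries 1, 2 and 4 of the 4-week group were high, library 3 was below every 1-week library, and the difference did not pass (2.03 ± 0.84, adjusted p = 0.105). Spp1, osteopontin, had the same pattern, with 1637 ± 1186 at 4 weeks and 306 ± 95.7 at 1 week. It passed over all 10 libraries (1.93 ± 0.65, adjusted p = 0.0437) but not in 7 of the 10 fits that left out 1 library (adjusted p up to 0.133), nor without libraries 1, 2 and 4 of the 4-week group together (0.28, adjusted p = 0.898). Ibsp did not pass (1.51 ± 0.67, adjusted p = 0.134), and neither did Sp7, the osteoblast and hypertrophic factor (0.09 ± 0.46, adjusted p = 0.928). Without those 3 libraries 5 of the 13 markers rose, among them Alpl, Panx3 and Pth1r, and the list median was 0.33.

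**Figure D2:**
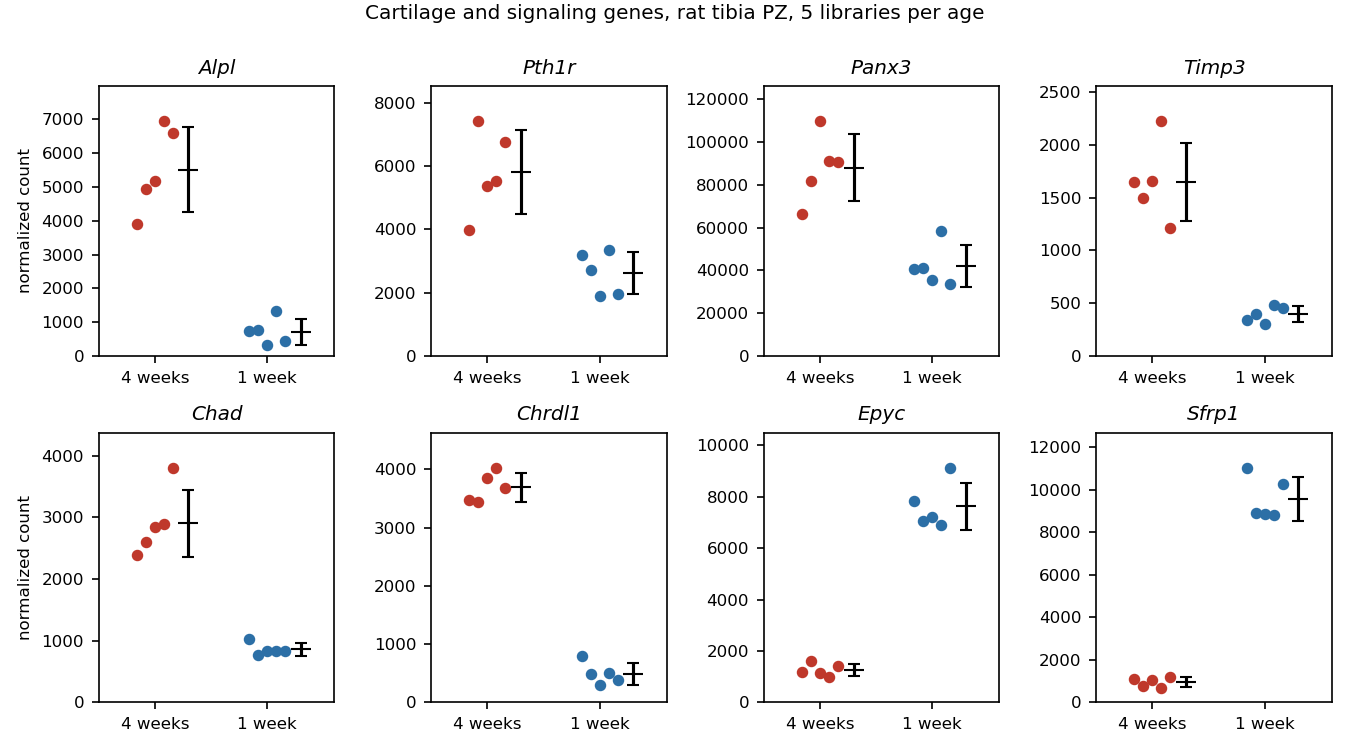
Normalized counts (linear vertical axis, starting at 0) of 8 cartilage and signaling genes in the rat tibia PZ at 4 weeks (red, left) and 1 week (blue, right). Points are single libraries in the order 1 to 5, with the mean ± SD (n = 5) beside them. Alpl, Pth1r, Panx3, Timp3, Chad and Chrdl1 are higher in every 4-week library and Epyc and Sfrp1 lower, with Alpl at a mean of 5516 at 4 weeks against 717 at 1 week.

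Genes of mineralization rose in 7 of 15 and fell in 2 (median 0.72). Besides Alpl, Enpp1 and Spp1, those that rose were Smpd3, a sphingomyelinase needed for mineralization (0.65 ± 0.17, adjusted p = 0.00771), and the bone proteins Bglap, Dmp1 and Mepe, given with the osteoblast markers below. Mgp, the matrix Gla protein that inhibits calcification, averaged 4116 ± 1011 at 4 weeks and 7303 ± 1227 at 1 week (-0.84 ± 0.23, adjusted p = 0.00971), and the phosphate transporter Slc20a2 fell as well (-0.83 ± 0.18, adjusted p = 0.00123). Once 4-week libraries 1, 2 and 4 were left out, 2 of the 15 rose and 1 fell, with a median of 0.35, and Dmp1 (0.90, adjusted p = 0.648) and Mepe (0.65, adjusted p = 0.756) did not pass.

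Of 23 matrix proteases and inhibitors 6 rose and 2 fell. Timp3, a matrix-bound inhibitor of metalloproteases, had 1650.5, 1494, 1662, 2226 and 1209 normalized counts at 4 weeks, against 343, 400.4, 301, 482 and 454 at 1 week. Every 4-week library was above every 1-week library (2.05 ± 0.24, adjusted p = 1.45e-07). Mmp16, a membrane metalloprotease (-1.52 ± 0.18, adjusted p = 1.45e-07), and Adamts3, a procollagen peptidase (-1.21 ± 0.19, adjusted p = 2.56e-05), fell, and Mmp3, stromelysin, rose (2.49 ± 0.57, adjusted p = 0.00186). Adamts5, an aggrecanase, averaged 32.5 at 4 weeks and 4.44 at 1 week (2.78 ± 0.79, adjusted p = 0.0126), and its call was lost without library 4 of the 1-week group (adjusted p = 0.0507). Adamts4, the other main aggrecanase, did not pass (1.00 ± 0.80, adjusted p = 0.446). Without 4-week libraries 1, 2 and 4, 1 of the 23 rose and 3 fell.

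Of 30 genes of glycosaminoglycan synthesis 2 rose and 4 fell, and with any 1 library left out 1 to 4 fell, the fewest without library 2 of the 4-week group and in 3 other such fits. Has2, the hyaluronan synthase of the growth plate, had 3819, 4955, 8169.7, 6781 and 5956 normalized counts at 4 weeks, against 2814, 3128, 2236, 4000.1 and 2443 at 1 week. One 4-week library fell just inside the 1-week range (1.00 ± 0.23, adjusted p = 0.00201). Hs6st2, a heparan sulfate sulfotransferase, had the largest change of the list (-3.89 ± 0.85, adjusted p = 0.00135). Among 11 heparan sulfate proteoglycans Gpc1 (0.99 ± 0.17, adjusted p = 8.79e-05) and Gpc4 (0.92 ± 0.24, adjusted p = 0.00539) rose, and Gpc3 (above) and Agrn (-1.05 ± 0.17, adjusted p = 2.32e-05) fell. Of 8 integrins Itgb1, the common beta subunit, rose (0.72 ± 0.16, adjusted p = 0.00191) and Itga11, a collagen receptor subunit, fell (-0.86 ± 0.19, adjusted p = 0.00179).

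Genes of the cell cycle were at like levels at both ages. Of 35 mitosis genes 0 rose and 0 fell at an adjusted p under 0.05, with a median of 0.03, and of 37 DNA replication genes 1 rose and 3 fell, with a median of -0.05. Mki67, the proliferation marker, had 11295, 6147, 6092, 7346 and 7339.6 normalized counts at 4 weeks, against 8235, 6320.2, 7736, 6286 and 6972 at 1 week. The groups overlapped (0.07 ± 0.22, adjusted p = 0.872). Top2a (0.13 ± 0.27, adjusted p = 0.815), Ccnb1 (0.21 ± 0.40, adjusted p = 0.793) and Foxm1 (-0.62 ± 0.29, adjusted p = 0.145), which act in mitosis, did not pass either. Blood cell precursors also divide, and their markers were higher in every 4-week library (below). Their part in these levels was not tested. With the B lymphocyte marker level as a covariate, the list medians were -0.62 for mitosis and -0.61 for DNA replication genes. That level did not overlap between the ages, so its part cannot be told apart from age. In the mouse tibia PZ the medians were -0.50 and -0.31, against 0.06 over all mouse genes tested. In each list 0 were higher and 2 lower in mouse at an adjusted p under 0.05. The share of all mouse genes at that threshold is not given here, so these counts are not read against one.

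A few replication and cell cycle genes did move. Pcna, the sliding clamp of DNA polymerases, had 1457, 653, 1066, 1020.3 and 808 normalized counts at 4 weeks and 351, 486, 598, 394 and 643 at 1 week, without overlap (1.00 ± 0.25, adjusted p = 0.00439). Pole, the catalytic subunit of polymerase epsilon, had 676, 530.1, 424, 474 and 499.9 at 4 weeks and 1338, 937, 1344, 1017 and 1025 at 1 week, also without overlap but in the other direction (-1.12 ± 0.27, adjusted p = 0.00306). The ligase Lig1 fell (-0.55 ± 0.14, adjusted p = 0.00663), and Pola1 passed at -0.58 ± 0.20, adjusted p = 0.041, a call lost in 6 of the 10 fits that left out 1 library (adjusted p 0.0695 to 0.118). Of 19 cyclins, kinases and inhibitors, Ccnd2, cyclin D2, fell and Rb1, the retinoblastoma gene, rose (0.85 ± 0.21, adjusted p = 0.00366). Ccnd2 had 306, 295, 345, 229 and 255 at 4 weeks, against 616, 603, 572, 546 and 746 at 1 week. Its groups were apart (-1.11 ± 0.23, adjusted p = 0.000579). Cdkn1a, the inhibitor p21, averaged 1962 ± 533 at 4 weeks and 1296 ± 484 at 1 week and did not pass (0.62 ± 0.23, adjusted p = 0.0633).

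Genes of protein folding and secretion in the endoplasmic reticulum (ER) rose in 12 of 22 and fell in 0, with a median of 0.62. Hspa5, the main ER chaperone, had 23244, 20940.4, 28616, 24083 and 23332 normalized counts at 4 weeks, against 9908, 14683, 14492, 17068 and 14922 at 1 week. Sdf2l1, an ER stress-induced chaperone partner, had 442, 629, 561, 527 and 544 at 4 weeks and 47.6, 187, 243, 216 and 161 at 1 week. Both were higher in every 4-week library (Hspa5 0.77 ± 0.17, adjusted p = 0.00118, Sdf2l1 1.83 ± 0.37, adjusted p = 0.000614). Herpud1, of ER-associated degradation (1.51 ± 0.30, adjusted p = 0.000538), Sec13, of the vesicle coat that leaves the ER (0.67 ± 0.14, adjusted p = 0.000854), and Atf4, a stress-response factor (0.87 ± 0.19, adjusted p = 0.00141), rose. With any 1 library left out 9 to 13 of the 22 rose, and without 4-week libraries 1, 2 and 4 together 5 rose. Of 16 collagen processing genes 5 rose and 0 fell, led by the collagen chaperone Serpinh1 (1.04 ± 0.14, adjusted p = 2.1e-06) and the cross-linking enzyme Lox (1.33 ± 0.34, adjusted p = 0.00675), and with 1 library left out 2 to 6 rose, the fewest without library 2 of the 4-week group and in 3 other such fits.

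Respiratory chain genes rose in 11 of 38 and fell in 0, with a median of 0.49. In 17 of the 38 every 4-week library was above every 1-week library, against 8.9% of all genes. Ndufa4 (0.93 ± 0.18, adjusted p = 0.000368) and Ndufb5 (0.79 ± 0.18, adjusted p = 0.00169), counted here with complex I, and Cox5b of complex IV (0.88 ± 0.22, adjusted p = 0.00424) had the smallest adjusted p among those named. The rises were under 2-fold. Without 4-week libraries 1, 2 and 4, 2 of the 38 rose and the median was 0.50. Of 15 antioxidant and heme genes 6 rose and 0 fell, and without 4-week libraries 1, 2 and 4, 2 rose. Prdx2, a peroxiredoxin abundant in red cells, had 1873, 1799, 1299.9, 1692 and 1564 normalized counts at 4 weeks, against 595, 591, 661, 674 and 843 at 1 week, without overlap (1.29 ± 0.16, adjusted p = 6.24e-07). Sod3, the extracellular superoxide dismutase (1.52 ± 0.24, adjusted p = 2.57e-05), and Sod2, the mitochondrial one (1.02 ± 0.24, adjusted p = 0.00216), rose, and Gpx3, a secreted glutathione peroxidase, averaged 1927 ± 1674 at 4 weeks and 115 ± 41.3 at 1 week (3.39 ± 0.73, adjusted p = 0.00195), highest in 4-week libraries 1, 2 and 4. Its call was lost without those 3 libraries (1.46, adjusted p = 0.336) and with voom (adjusted p = 0.0988). Erythroid markers were also higher in every 4-week library, and their part in the rise of Prdx2 was not tested.

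Of 26 genes of glycolysis and hypoxia 6 rose and 0 fell (median 0.15). Hif1a, the oxygen-sensing factor that keeps growth plate chondrocytes alive, had 11752, 11476, 15403, 13860.5 and 13230.2 normalized counts at 4 weeks, against 9951, 7866, 7907, 7418 and 7952 at 1 week. The groups did not overlap (0.68 ± 0.16, adjusted p = 0.0023). Epas1, the related factor Hif2a, also rose (2.31 ± 0.51, adjusted p = 0.00233), though not without 4-week libraries 1, 2 and 4 (adjusted p = 0.218). The carbonic anhydrase Car12 (1.10 ± 0.22, adjusted p = 0.000384), the hexokinase Hk1 (0.84 ± 0.19, adjusted p = 0.00191) and the phosphofructokinase Pfkp (1.15 ± 0.29, adjusted p = 0.00546) rose.

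Of 74 cytosolic ribosomal protein genes 1 rose and 6 fell, with a median of -0.11, and with any 1 library left out 2 to 6 fell, the fewest without library 1 of the 4-week group and in 2 other such fits. Of 19 immediate early genes Klf4 alone rose (1.00 ± 0.19, adjusted p = 0.000338), and the list median was 0.57.

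**Figure D3:**
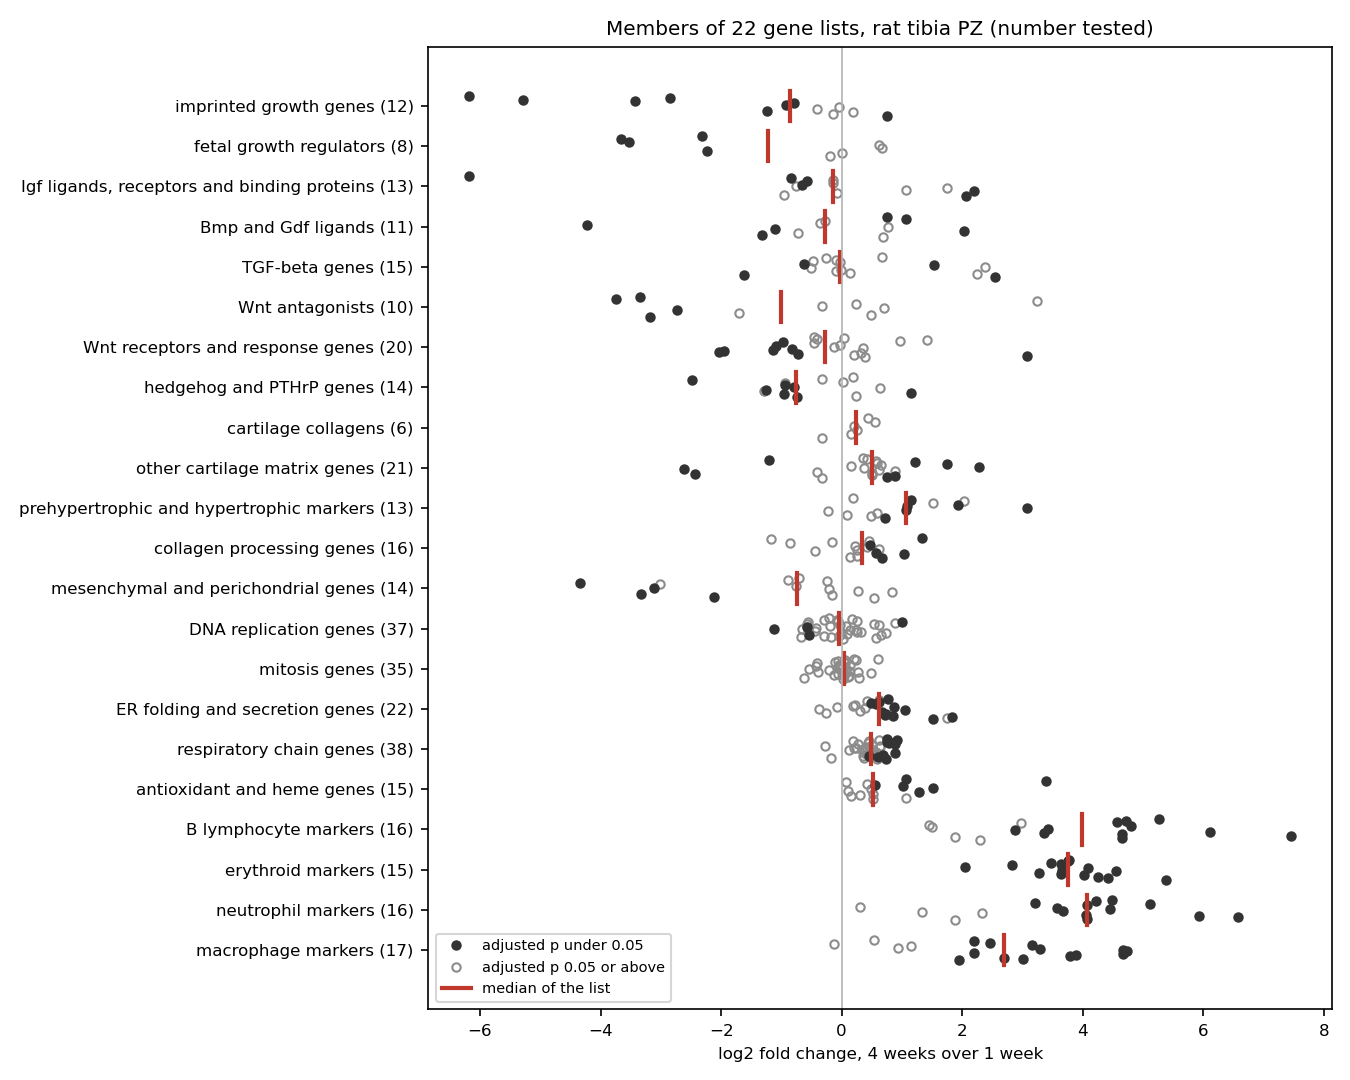
Log2 fold change (4 weeks over 1 week, horizontal axis) of every tested member of 22 gene lists in the rat tibia PZ. Filled points have an adjusted p under 0.05, open points do not, and the red line is the median of the list. The medians run from -1.21 for fetal growth regulators to 4.07 for neutrophil markers, and mitosis genes sit around 0.03.

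Mesenchymal and perichondrial genes fell in 4 of 14 and rose in 0, with a median of -0.73, and the same count fell without 4-week libraries 1, 2 and 4. Postn, periostin of the periosteum and perichondrium, had 105, 59.9, 24.8, 127 and 54.7 normalized counts at 4 weeks, against 1434, 1594, 494, 3201 and 1094 at 1 week. Col14a1, a fibril-associated collagen, had 198, 189, 159.8, 222 and 259 at 4 weeks and 776, 689.6, 804, 1101 and 1165 at 1 week. In both genes every 4-week library was below every 1-week library (Postn -4.34 ± 0.74, adjusted p = 0.000162, Col14a1 -2.12 ± 0.24, adjusted p = 7.9e-08). Col3a1, the collagen of loose connective tissue (-3.32 ± 0.67, adjusted p = 0.00101), and Prrx1, a limb mesenchyme factor (-3.12 ± 0.45, adjusted p = 5.88e-06), were the other 2. Col1a1, the main collagen of bone and tendon, averaged 40814 ± 37886 at 4 weeks and 21009.9 ± 13658 at 1 week and did not pass (0.27 ± 0.83, adjusted p = 0.877). In the fit of the tibia PZ libraries alone, 1 of the 14 rose and 4 fell. Some markers of connective tissue around the cartilage thus differed between the groups, and the part of such tissue in the declines of other genes was not tested.

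Blood cell markers were higher in every 4-week library and had the highest list medians. Of 15 erythroid markers 15 rose (median 3.75), of 16 neutrophil markers 12 (4.07), of 16 B lymphocyte markers 11 (4.00, or 3.25 with genes at 0 in the 1-week group set at their lower bound) and of 17 macrophage markers 13 (2.70, or 2.46 on the same terms), and 0 of these 4 lists' genes fell. Slc4a1, the band 3 anion exchanger of red cells, had 10709.5, 4419, 2769.6, 5269 and 4410.3 normalized counts at 4 weeks, against 283, 316, 231, 364 and 272 at 1 week. S100a9, calprotectin of neutrophils, had 1997, 273, 325, 565 and 537 at 4 weeks and 49.5, 32.1, 15.0, 10.7 and 76.0 at 1 week. Spib, a B lineage transcription factor, had 1003, 399, 562, 535 and 425 at 4 weeks and 0, 7.42, 2.50, 2.66 and 1.88 at 1 week. None of these genes overlapped between the ages (Slc4a1 4.10 ± 0.36, adjusted p = 5.93e-09, S100a9 4.22 ± 0.60, adjusted p = 1.31e-05, Spib 7.46 ± 1.00, adjusted p = 2.8e-06).

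The level of each list was higher in every 4-week library than in any 1-week library. The mean log2 level of the B lymphocyte markers was 5.09 to 6.69 in 4-week libraries and 1.45 to 1.97 in 1-week libraries. Erythroid markers ran from 6.83 to 8.88 at 4 weeks and from 3.53 to 5.04 at 1 week, neutrophil markers from 5.26 to 7.90 at 4 weeks and from 1.76 to 3.13 at 1 week, and macrophage markers from 4.86 to 6.98 at 4 weeks and from 2.89 to 4.12 at 1 week. Library 1 of the 4-week group was the highest in all 4 lists. The red cell membrane proteins Sptb (4.55 ± 0.38, adjusted p = 5.1e-10) and Epb42 (4.42 ± 0.45, adjusted p = 1.2e-08) and the globin gene Hbb (3.63 ± 0.42, adjusted p = 4.4e-07) rose, as did the macrophage genes Cd74 (4.67 ± 0.73, adjusted p = 3.19e-05) and Mrc1 (4.73 ± 0.69, adjusted p = 5.97e-06). Globin and alpha-defensin genes have near-identical copies, so their single values are uncertain. Ms4a1, which encodes CD20, averaged 24.5 at 4 weeks and was at 0 in every 1-week library, at least 7.12-fold higher with the 1-week level set at 3 reads per library. Pax5, the B lineage factor, averaged 16.3 at 4 weeks and 2.93 at 1 week and did not pass (2.98 ± 1.07, adjusted p = 0.0525), nor did the macrophage marker Cd68 (0.54 ± 0.45, adjusted p = 0.465).

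How far the blood cell RNA contributed to other rises was not tested. Members of the blood cell and osteoclast lists made up 59 of the 680 genes called higher. They were 15 of 15 erythroid, 12 of 16 neutrophil, 11 of 16 B lymphocyte and 13 of 17 macrophage markers. The rest were 2 of 9 T and natural killer cell, 4 of 7 megakaryocyte, mast cell and eosinophil, and 2 of 7 osteoclast markers. Every list was above the share of all genes called higher (5.77%). Blood cell genes outside the lists were not counted. Without 4-week libraries 1, 2 and 4, 14 of 15 erythroid, 9 of 16 B lymphocyte, 4 of 16 neutrophil and 3 of 17 macrophage markers still rose. Leaving out library 1 of the 4-week group alone brought the macrophage count to 8, and a voom fit on recovered reads brought it to 6. Of 9 markers of T and natural killer cells Nkg7 (4.37 ± 0.94, adjusted p = 0.00112) and Cd7 rose, and of 7 markers of megakaryocytes, mast cells and eosinophils 4 rose, among them Pf4 of platelets (3.20 ± 0.79, adjusted p = 0.0039). Of those 7, 0 rose without 4-week libraries 1, 2 and 4 (median 1.33), and of the 9 markers of T and natural killer cells 1 rose. Cd7 averaged 10.6 at 4 weeks and was at 0 at 1 week, at least 3.08-fold higher by the same floor.

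**Figure D4:**
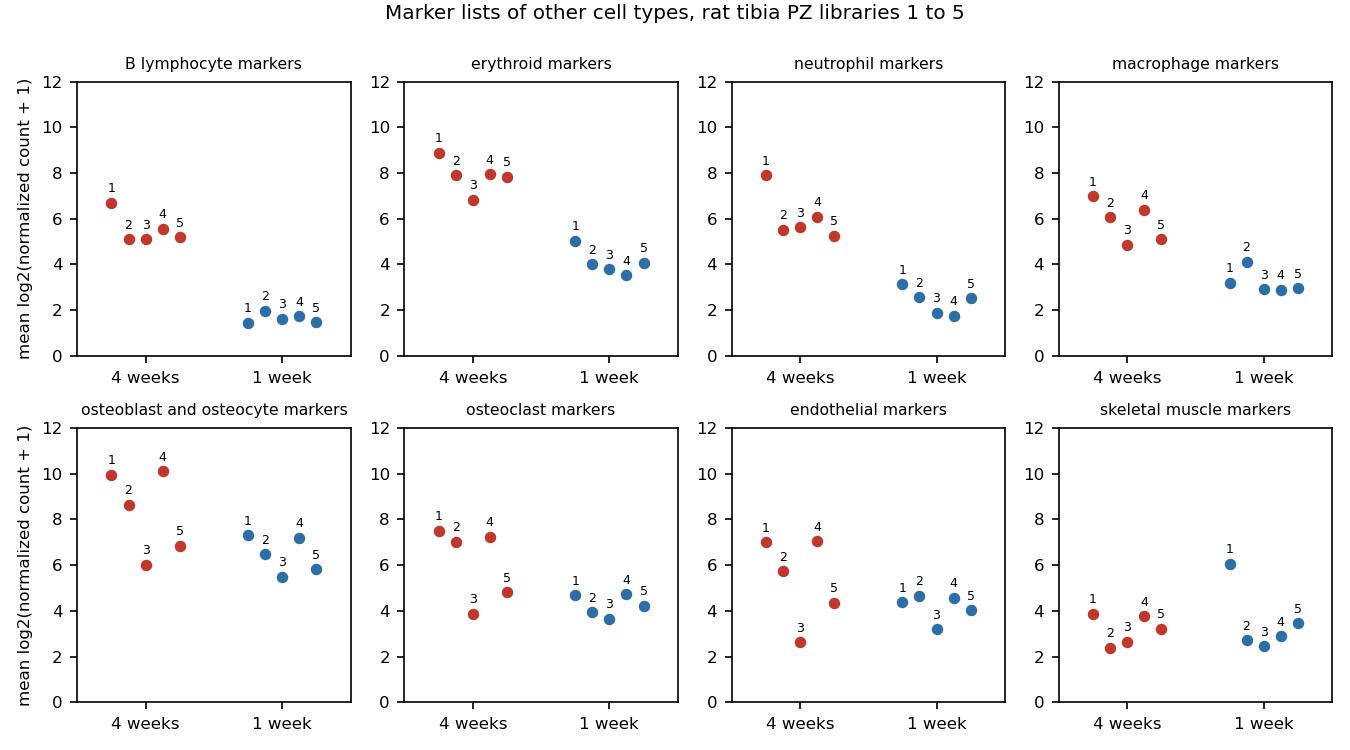
Mean log2(normalized count + 1) over each marker list (vertical axis) in the 10 rat tibia PZ libraries, 4 weeks in red on the left and 1 week in blue on the right, with the library number above each point. B lymphocyte markers lie at 5.09 to 6.69 at 4 weeks and 1.45 to 1.97 at 1 week, while 4-week libraries 3 and 5 lie within or near the 1-week range for osteoblast, osteoclast and endothelial markers.

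Of 9 osteoblast and osteocyte markers 3 rose, all 3 of them bone proteins. Bglap, osteocalcin, had 523, 208, 19.9, 514 and 23.4 normalized counts at 4 weeks, against 1.98, 0, 0, 3.99 and 5.63 at 1 week. Libraries 3 and 5 of the 4-week group were low but still above the 1-week libraries (5.62 ± 0.94, adjusted p = 4.88e-05). Dmp1 (2.85 ± 0.77, adjusted p = 0.0115) and Mepe (3.25 ± 0.87, adjusted p = 0.00926), of osteocytes and late hypertrophic cells, were highest in the same 3 libraries. Of 7 osteoclast markers 2 rose, Itgb3 (2.43 ± 0.61, adjusted p = 0.00645) and Acp5, and of 12 endothelial markers Pecam1 alone (2.33 ± 0.60, adjusted p = 0.0065). Acp5, the osteoclast acid phosphatase, averaged 5.37 in the entry used and was at 0 at 1 week, and its call was lost in 9 of the 10 fits that left out 1 library (adjusted p 0.0523 to 0.104). Leaving out 1 library gave 1 to 4 osteoclast and 1 to 4 endothelial markers that rose. Ctsk, cathepsin K of osteoclasts (1.67 ± 0.74, adjusted p = 0.137), and the endothelial genes Kdr (0.97 ± 0.69, adjusted p = 0.379) and Cdh5 (0.93 ± 0.89, adjusted p = 0.54) did not pass. Without 4-week libraries 1, 2 and 4, 0 osteoblast, 0 osteoclast and 0 endothelial markers rose and 1 endothelial marker fell.

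Some fat cell markers also rose, and skeletal muscle markers did not as a list. Adipoq, the adipocyte hormone adiponectin, had 176, 65.5, 69.6, 101 and 17.2 normalized counts at 4 weeks and 0 in every 1-week library, at least 24.9-fold higher by the floor of 3 reads per library. Fabp4 (3.79 ± 0.46, adjusted p = 2.36e-07) and Cfd (4.97 ± 0.78, adjusted p = 1.87e-05), of adipocytes, and the lipase Lpl (3.02 ± 0.64, adjusted p = 0.0015) rose too, which makes 4 of 9 markers of adipocytes and nerve sheath. Of 9 skeletal muscle markers Tnni2, fast troponin I, alone rose, with 1009, 877, 1495, 1123 and 1194 at 4 weeks and 167, 93.9, 101, 65.2 and 136 at 1 week. Its groups were apart (3.38 ± 0.41, adjusted p = 2.86e-07), while the defining muscle genes Acta1 (4.92 at 4 weeks and 62.0 at 1 week) and Ckm (4.69 at 4 weeks and 32.6 at 1 week) were low at both ages apart from library 1 of the 1-week group.

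By size, 12 genes led the rises: Spib, RatNP-3b, Rag1, Defa5, Ctse, Bglap, Pck1, Cecr2, Tmprss3, Cd79b, Tnfrsf14 and Cd38. They were the largest log2 fold changes, from 7.46 to 4.90, among called genes with a mean of at least 100 normalized counts and no overlap between the ages. RatNP-3b and Defa5 are neutrophil defensins, Rag1 is a subunit of the recombinase that rearranges antigen receptor genes in lymphocyte precursors, Cd79b is a signaling subunit of the B cell receptor, and Pck1 is the gluconeogenic enzyme of liver, kidney and fat. Ctse, a cathepsin found in red cell membranes and immune cells, averaged 154 ± 92.2 at 4 weeks and 2.71 ± 3.80 at 1 week. Pck1 spread widely, from 6.25 to 349 at 4 weeks (5.59 ± 1.35, adjusted p = 0.00392). Cd38, an NAD-consuming enzyme of lymphoid and bone cells, was among the most even, with 146, 121, 95.2, 109.8 and 84.4 at 4 weeks and 1.98, 9.89, 0, 2.66 and 4.69 at 1 week. The 5 older libraries varied little and all lay far above the 5 younger ones (4.90 ± 0.50, adjusted p = 1.23e-08).

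By the same rule, 12 genes led the declines: Crabp1, Itga8, Vsnl1, Igf2, Shisa3, Foxp2, Tox, Dlk1, Slit1, RGD1566401, Kcnj6 and Postn. Crabp1, a retinoic acid-binding protein of embryonic mesenchyme, was at 0 in every 4-week library, against 219, 213, 20.0, 277 and 67.5 normalized counts at 1 week. With the 4-week level set at 3 reads per library it was at least 76.0-fold lower. Itga8, an integrin subunit of mesenchyme, had 16.0, 2.79, 0, 15.4 and 3.12 at 4 weeks and 477, 391, 368, 490 and 319.8 at 1 week. Tox, a factor of the high mobility group box family, had 38.8, 39.0, 4.97, 25.2 and 35.9 at 4 weeks, against 1359, 955, 1136, 880.2 and 1153 at 1 week. In both genes the ages were far apart (Itga8 -6.24 ± 0.55, adjusted p = 6.4e-10, Tox -5.46 ± 0.44, adjusted p = 6.24e-11). Foxp2, a forkhead factor, averaged 15.1 ± 12.3 at 4 weeks and 544 ± 63.1 at 1 week (-5.50 ± 0.53, adjusted p = 3.78e-09). Slit1, a guidance ligand, averaged 8.15 at 4 weeks and 228 at 1 week (-4.89 ± 0.81, adjusted p = 4.61e-05), and Shisa3, an antagonist of Wnt and Fgf receptors, 1.43 at 4 weeks and 134 at 1 week (-6.07 ± 0.88, adjusted p = 5.72e-06). The neuronal calcium sensor Vsnl1 averaged 7.26 at 4 weeks and 337 at 1 week (-6.23 ± 1.03, adjusted p = 4.15e-05), and the potassium channel gene Kcnj6 averaged 8.35 at 4 weeks and 178 at 1 week (-4.37 ± 0.76, adjusted p = 0.00012).

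The age change of the PZ was set against that of the HZ of the same bone, from separate libraries. Over all genes the change differed between the zones in 512 (4.35%), being higher in the PZ in 332 and lower in 180. Of the 680 genes higher at 4 weeks in the PZ, 151 had a change above that of the HZ, and of the 359 lower genes 70 had a change below it. These counts share the PZ libraries that chose the genes. In the HZ libraries alone, the 680 genes had a median log2 fold change of 0.83 and the 359 genes one of -0.71, against 0.09 over all genes.

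Of 28 genes chosen for this comparison from the groups above, the change differed in 20. The 28 were chosen with results from the same PZ libraries known. Their count therefore cannot be read against the 4.35% over all genes. Igf2 fell in both zones, with log2 fold changes of -6.18 in the PZ and -5.65 ± 0.37 in the HZ (difference -0.52 ± 0.53, adjusted p = 0.697), and H19 likewise (-2.85 and -3.56, difference 0.70 ± 0.29, adjusted p = 0.185). Chrdl1 rose in both (2.98 and 2.23, difference 0.74 ± 0.45, adjusted p = 0.438). Other genes changed in the PZ more than in the HZ. Sfrp1 had -3.34 in the PZ and -0.40 in the HZ (difference adjusted p = 0.000199), Lum -2.44 and -0.02 (0.000337), and Tgfbi -1.62 and -0.01 (0.00204). Alpl had 3.07 in the PZ and 0.31 in the HZ (3.53e-05), and Timp3 2.05 and -0.42 (1.98e-05). Alpl in the HZ averaged 14761 at 4 weeks and 11731 at 1 week, so it was above the PZ level at both ages. Ihh fell in the HZ (-1.57 ± 0.28, adjusted p = 0.000235) and did not pass in the PZ, and those changes differed (0.00625). Erythroid markers differed as well. Slc4a1 had 4.10 in the PZ and 0.55 in the HZ (8.3e-05), and the mean log2 level of the erythroid list in the HZ was 7.46 to 8.80 at 4 weeks and 7.14 to 8.30 at 1 week.

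**Figure D5:**
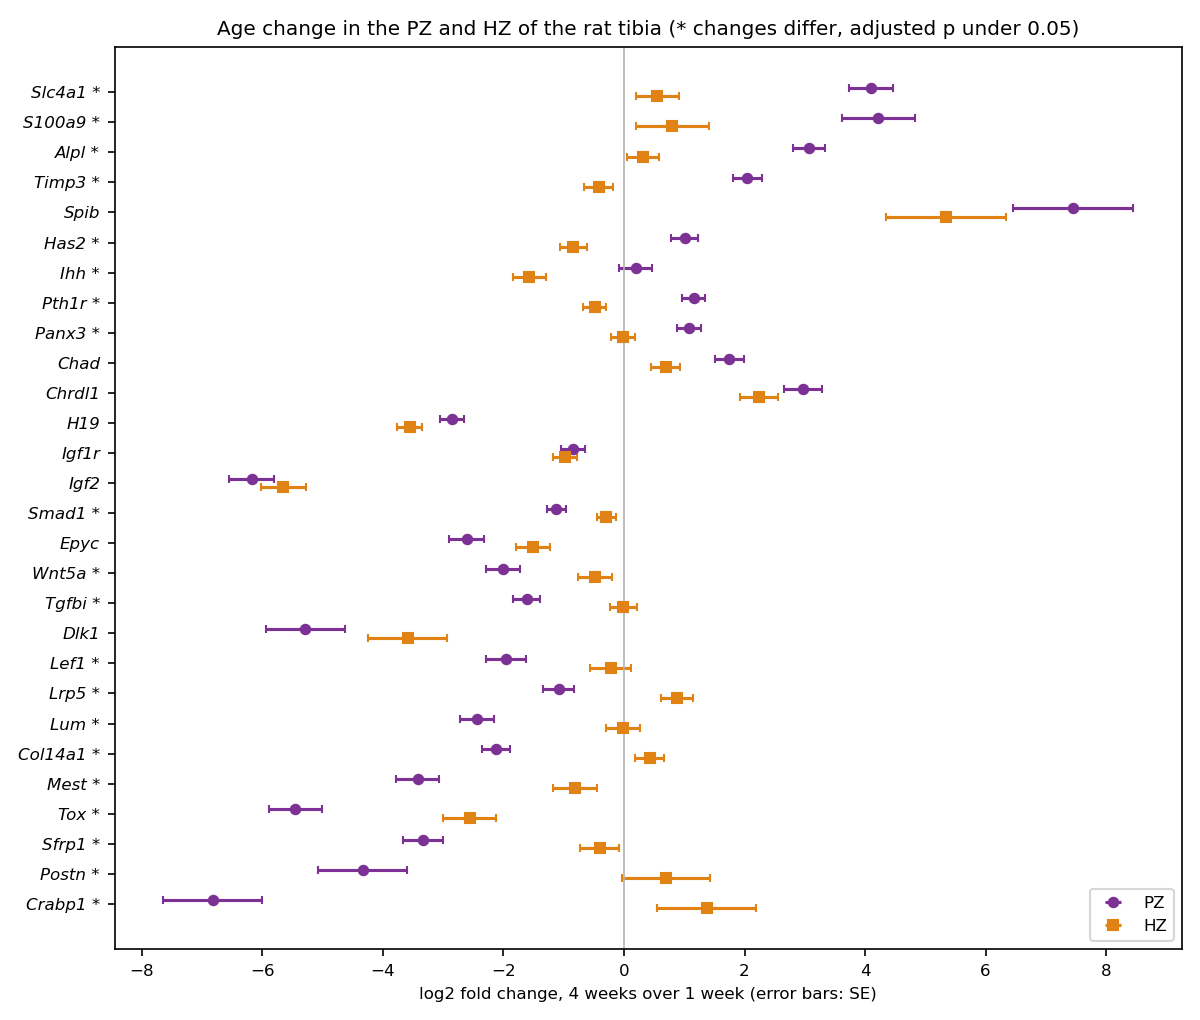
Log2 fold change of 4 over 1 week (horizontal axis, ± SE) of 28 genes in the PZ (purple circles) and HZ (orange squares) of the rat tibia, ordered by the difference between the zones. An asterisk marks the 20 genes whose change differed between the zones at an adjusted p under 0.05. The 28 genes were chosen with results from the same PZ libraries known. Igf2 and H19 lie far to the left in both zones, while Crabp1, Postn and Sfrp1 do so in the PZ and Alpl and Timp3 lie to the right in the PZ.

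The genes were also looked up in the zone difference of the 1-week phalanx (HZ over PZ), whose libraries are in neither age group. Over all genes 1927 (16.4%) were higher in the phalanx HZ and 1055 (8.96%) lower, by more than 2-fold. Of the 680 genes higher at 4 weeks in the tibia PZ, 306 (45%) were higher in the phalanx HZ and 24 lower. Of the 359 genes lower at 4 weeks, 34 were higher in the phalanx HZ and 117 lower. The median zone difference was 1.21 for the higher genes and -0.67 for the lower genes, against 0.08 over all genes. Markers of other cell types were also higher in the phalanx HZ than in the phalanx PZ. Mean log2 marker levels were 10.8 against 7.34 (osteoclast), 9.67 against 6.16 (endothelial), 8.27 against 5.72 (macrophage) and 11.3 against 8.95 (osteoblast and osteocyte). Erythroid (7.65 against 7.32) and neutrophil markers (5.15 against 5.00) differed less. The part of these cells in the 306 genes was not tested. Among the named genes, Alpl (2.46 ± 0.27, adjusted p = 3.25e-08), Timp3 (2.58 ± 0.24) and Igfbp7 (3.13 ± 0.47) were higher in the phalanx HZ, and Sfrp1 (-3.34 ± 0.33), Igf2 (-2.02 ± 0.37) and Col14a1 (-2.69 ± 0.24) lower. Chrdl1 did not pass there (-0.66 ± 0.32, adjusted p = 0.0952).

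In the mouse tibia PZ, with 5 libraries per age, 10353 of the same gene symbols were tested, of which 333 (3.22%) were higher at 4 weeks and 140 (1.35%) lower by more than 2-fold. Of the 680 rat genes called higher, 589 were tested in mouse and 125 of those were called higher there, which was 21.2% of the rat list and 37.5% of the mouse list. Of the 359 called lower, 305 were tested and 44 were lower in mouse, 14.4% of the rat list and 31.4% of the mouse list. In the 2 rat lists, 2 and 4 genes were called in the opposite direction in mouse. Igf2 (-5.24 ± 0.47, adjusted p = 5.21e-08), H19 (-3.24 ± 0.52, 0.000253), Dlk1 (-6.89 ± 0.84, 6.51e-07), Gpc3 (-4.22 ± 0.45, 3.65e-08), Plag1 (-2.17 ± 0.58, 0.0146) and Wnt5a (-1.88 ± 0.35, 0.000426) fell in the mouse PZ too. Alpl (3.91 ± 0.18, 9.42e-16), Chad (4.76 ± 0.34, 1.11e-09), Chrdl1 (2.69 ± 0.47, 0.000461) and Pth1r (1.26 ± 0.23, 0.000558) rose there.

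Other rat changes did not pass in mouse, which does not show that the species differ. Sfrp1 had -0.66 ± 0.60 in mouse (adjusted p = 0.614), Epyc 0.34 ± 0.51 (0.801), Postn 0.76 ± 0.70 (0.62) and Tox -0.44 ± 0.50 (0.706). Of the 8 erythroid markers tested in mouse 0 rose at an adjusted p under 0.05, with a median of 0.74, and of 16 B lymphocyte markers 7 rose, with a median of 2.78. These counts had no fold minimum, unlike the mouse shares given above, so those shares are not their background. The share of all mouse genes without a fold minimum is not given here, so the counts are not read against one. The median over all mouse genes tested was 0.06. Genes outside the lists that were called the same way in both species, chosen after their values were seen, include Sparc, a collagen-binding glycoprotein, which averaged 411205 ± 35515 in rat PZ at 4 weeks and 173389 ± 36358 at 1 week (1.27 ± 0.17, adjusted p = 1.81e-06), and Cst3, cystatin C, which averaged 5228 ± 604 at 4 weeks and 1151 ± 141 at 1 week (2.18 ± 0.15, adjusted p = 3.61e-12). Those called lower in both include Scube3, a secreted modulator of growth factor signaling, with 717 ± 176 at 4 weeks and 3361 ± 1157 at 1 week (-2.20 ± 0.28, adjusted p = 1.46e-06), and Adgrb1, an adhesion receptor, with 94.0 ± 30.0 at 4 weeks and 1395 ± 534 at 1 week (-3.87 ± 0.74, adjusted p = 0.000428).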

How the data were processed

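RNA from laser-captured PZ was amplified (Ovation V2), made into libraries with Nextera XT and sequenced as paired 50 bp reads, and reads were aligned with STAR 2.4.2 to the rn6 rat genome and counted with featureCounts 1.4.6, per the study's methods and the submitters' processing notes. The authors normalized the counts with the relative log expression method of DESeq2, and the values as deposited are log2(normalized count + 1). The annotation release and strand setting are not given in the sources used here, so overlapping and antisense genes cannot be told apart. No low-count filter is named there either. Whole reads could be recovered from all low values (100% whole within 0.05, for values under 200 reads).

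Here 15406 rat entries gave 15187 genes (217 repeated symbols were reduced to the entry with the highest mean, and 27 date-like symbols were repaired). Genes with at least 10 normalized counts in at least 5 libraries were tested (11779, with 3408 outside), with limma 3.58.1 in R 4.3.3 (trend and robust options) on the deposited log2 values of 30 libraries in 6 rat groups. PZ and HZ libraries were taken as independent, since the labels do not say which came from 1 animal. Calls needed an adjusted p under 0.05 and, over the whole table, more than 2-fold. The plan had assumed linear normalized counts, and the test was the same. The same fit was run on the mouse table. Replicates are separate animals as far as the labels go, and where they are not the p-values measure only the spread between these libraries. The script was tested on simulated data. Same-numbered libraries of the 2 ages deviated from their group means with correlations of -0.03 to 0.11, so numbers were not treated as pairs.

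Named genes were those the study names and the table holds, the 12 largest changes each way among called genes with a mean of at least 100 normalized counts in the higher group and no overlap, up to 4 members per list with the smallest adjusted p, cell type markers, and all members of counts of 5 or fewer. The 51 gene lists (968 distinct genes, some in more than 1 list) and the comparison itself were chosen with earlier results of these data known. Alternatives were another pseudocount, filter, normalization, set of libraries, replicate block, library weights, a voom fit on recovered reads, a B lymphocyte covariate and leaving out each library. A few genes that the rule names are not reported here. Leaving out 4-week libraries 1, 2 and 4 together was added after the data were seen.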

Additional observations from a re-analysis of the deposited data

Results flagged for a closer look

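Of 120 groups of 5 libraries examined, 7 had a highest or lowest library whose gap to its neighbor, as a share of the range of the group, exceeded the critical value of 0.71, and chance alone gives about 1 group in 20. Among genes these were Wnt5a in the 4-week group, where library 2 was highest (0.751), and Tox in the 4-week group, where library 3 was lowest (0.777). In the 1-week group library 1 was highest for Chad (0.743) and Hif1a (0.764) and lowest for Sdf2l1 (0.747). Among marker lists, library 2 of the 1-week group was highest for macrophage markers (0.746) and library 1 of the 1-week group for skeletal muscle markers (0.715). The gene calls of Wnt5a, Tox, Chad, Hif1a and Sdf2l1 passed in each fit that left out 1 library.

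The age change differed between the zones in 20 of the 28 genes compared, by the limma interaction test at an adjusted p under 0.05. The difference, PZ change minus HZ change on the log2 scale, was negative for Crabp1 (-8.20), Postn (-5.03), Sfrp1 (-2.93), Tox (-2.90), Mest (-2.61), Col14a1 (-2.55), Lum (-2.42), Lrp5 (-1.96), Lef1 (-1.74), Tgfbi (-1.61), Wnt5a (-1.53) and Smad1 (-0.83). It was positive for Slc4a1 (3.54), S100a9 (3.42), Alpl (2.76), Timp3 (2.47), Has2 (1.85), Ihh (1.76), Pth1r (1.64) and Panx3 (1.09). The value of Crabp1 depends on the pseudocount, since it was at 0 in every 4-week PZ library. These differences were obtained from the libraries in which the genes were chosen.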

How the results depend on the processing

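The counts of genes called over the whole table kept within 1.5 times under another pseudocount, no filter, a stricter filter, TMM scaling, quantile normalization and voom. With any 1 library left out, 562 to 705 genes were higher and 301 to 366 lower by more than 2-fold, 899 to 1086 rose and 579 to 704 fell without the fold minimum, 388 to 465 changed differently in the PZ and HZ, and 154 to 175 rat genes were called the same way in mouse, against 169 over all libraries. With array quality weights 1790 genes rose and 1213 fell without the fold minimum, 947 changed differently between the zones and 336 were shared with mouse. With the PZ libraries alone, 259 were shared with mouse without a block and 267 with the replicate block. With that block on the library number 770 genes were higher and 460 lower by more than 2-fold, 1435 rose and 1043 fell without the fold minimum, and 2 of 179 named calls were lost. The PZ against HZ comparison could not be fitted with PZ libraries alone.

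With the B lymphocyte marker level as a covariate, 7 genes were higher and 12 lower by more than 2-fold, the same 7 and 12 counts held without the fold minimum, and 8 were shared with mouse. Higher genes then made up 36.84% of the calls, against 65.45% without the covariate. That level did not overlap between the ages. Of the 680 and 359 genes called, 597 and 346 kept their direction there. The log2 fold change turned to the other sign, at adjusted p of 0.896 to 0.999, for Cd79b (-0.98), Nkg7 (-1.27), Lyz2 (-0.54), Gpx1 (-0.37), Dkk2 (0.0164), Axin2 (0.20) and Gli3 (0.39). Without 4-week libraries 1, 2 and 4, chosen after the data were seen, 303 genes were higher by more than 2-fold, 413 rose and 358 fell without the fold minimum, 286 changed differently between the zones, 102 were shared with mouse, and higher genes made up 51.44% of the calls. In that fit 264 and 211 of the 680 and 359 genes were still called and 679 and 359 kept their direction. Part of the loss follows from its construction, with 2 libraries against 5. In other cases the cause was not tested. Of 179 named calls, 70 were lost in that fit, 15 with voom, and 7 to 17 with 1 library left out. The 1-week libraries held fewer reads than the 4-week libraries, and 173 tested genes were at 0 in every 1-week library against 26 in every 4-week library, so folds of low genes are set by the floor.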

Other observations

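Some groups and genes of the PZ comparison are not described above. Of 7 resting zone genes tested 0 passed in limma in either direction, with a median log2 fold change of 0.25. Among the largest rises, Tnfrsf14, a receptor of the tumor necrosis factor family, averaged 356 ± 243 normalized counts at 4 weeks and 9.49 ± 4.24 at 1 week, and the membrane protease gene Tmprss3 averaged 118 ± 119 at 4 weeks and 2.12 ± 2.92 at 1 week. Cecr2, of a chromatin remodeling complex, averaged 198 ± 112 at 4 weeks and 4.93 ± 4.70 at 1 week. Among the largest declines, the unannotated gene RGD1566401 averaged 95.0 ± 51.7 at 4 weeks and 1976 ± 414 at 1 week. Lrrc17, a secreted leucine-rich repeat protein chosen after its values were seen, averaged 107 ± 55.7 at 4 weeks and 614 ± 66.1 at 1 week (-2.68 ± 0.54, adjusted p = 0.000688).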
